A study of Canis lupus familiaris with 27 samples.

Results

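The ligands and receptors of the tumor necrosis factor (TNF) superfamilies were followed in 27 canine simple mammary carcinomas. Members were all genes whose symbol in the array's gene annotation begins with TNFSF (ligands) or TNFRSF (receptors), together with TNF, LTA, LTB, LTBR, FAS, FASLG, CD27, CD40 and CD40LG. This rule found 34 of 15115 annotated genes, 15 ligands and 19 receptors, and the probe set with the highest mean over the 27 tumors stood for each gene. The TWEAK gene TNFSF12, the receptors TNFRSF10A, TNFRSF10B and TNFRSF17, and the decoy receptors TNFRSF6B, TNFRSF10C and TNFRSF10D were not analysed here.

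TNF superfamily ligands are mostly trimeric membrane proteins that can be shed from the cell surface, and each binds 1 or a few receptors of the TNF receptor superfamily. Receptors with an intracellular death domain can recruit adaptors that activate caspases. The others bind TRAF adaptors and signal mainly through NF-kB and stress kinases. In mammary tissue the family is known for the RANK ligand axis, which drives the progestin response and osteoclast formation, for death receptors on carcinoma cells, and for the signals that lymphocytes, macrophages and dendritic cells exchange.

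Of the tumors, 13 came from dogs with lymph node metastases at resection (metastatic, dogs 1 to 13) and 14 from dogs without them (non-metastatic, dogs 14 to 27), and 1 array was hybridized per tumor. The metastatic tumors, 6 of grade II and 7 of grade III, came from dogs aged 9 to 16 years and measured 0.5 to 5 cm. The non-metastatic tumors, 5 of grade II and 9 of grade III by the labels, came from dogs aged 9 to 15 years and measured 2 to 15 cm, as tumors of larger diameter had been selected for this group. No dog had a history of progestin treatment, and all 27 tumors were negative for estrogen receptor alpha. The RNA came from macrodissected tissue rich in carcinoma cells that also holds stroma, vessels and leukocytes. In such bulk tissue, fewer cells of a type and less RNA per cell cannot be told apart.

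Levels are deposited log2 array values, on which a difference of 1 is a doubling. A gene was called at an adjusted p under 0.05 from limma, with Benjamini-Hochberg adjustment over all 15115 genes. Across these genes 10.6% were called higher and 7.27% lower in metastatic tumors, 1595 and 1099 genes, or 1828 and 638 after each array was centred on its median, 980 and 960 after a second quantile normalization, and 403 and 395 when each array's upper quartile entered the fit. The arrays of the 2 groups were not alike. The 13 metastatic tumors had an upper quartile of 7.93 ± 0.04 (SD), against 7.75 ± 0.15 (SD) for the 14 non-metastatic tumors (two-sided permutation test, p = 0.00011), and the 3′ to 5′ difference of the GAPDH control probe sets, a sign of RNA quality, was 1.84 ± 0.32 in metastatic and 1.32 ± 0.42 in non-metastatic tumors (SD, p = 0.00185). The sample names of 11 metastatic and 0 non-metastatic tumors end in the letter T, whose meaning the sources do not give. Dog 22, labelled non-metastatic, later developed lung metastases. The study's clustering of these same data placed the tumors of dogs 14 and 22 with the metastatic ones. Results were also computed without dogs 14 and 22. The luminal epithelium markers, with EPCAM at 13.8 in metastatic and 13.4 in non-metastatic tumors on average, were high in both groups, whereas the B cell marker CD79A averaged 2.86 and 2.52.

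Most of the family lay low on the array. The median level of all probe sets was 3.77, and a gene with a mean below it is called dim here, since many such values are close to background. Of the 34 members 18 were dim and 16 were not, and those 16 comprised 6 of the 15 ligands and 10 of the 19 receptors. The 3 highest were TNFSF10 (mean 12.4, higher than 97.4% of genes), LTBR (9.27) and TNFRSF14 (9.22). TNF itself lay between 2.43 and 3.09 in all 27 tumors. LTA, FASLG, CD40LG, TNFSF9, TNFSF14, TNFRSF8, TNFRSF9, TNFRSF13B and TNFRSF13C were also dim. Of the 18 dim members 14 had an SD under 0.5 over the tumors, and 8 of the 34 had an SD over 1, led by TNFRSF11B (2.86), TNFSF11 (1.86) and TNFSF13B (1.68).

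Metastatic tumors had higher levels of 3 members and lower levels of 4. CD40, the co-stimulatory receptor of B cells and antigen-presenting cells, TNFRSF12A, the TWEAK receptor Fn14, and TNFSF13B, the B cell survival factor BAFF, were higher. LTB, the membrane anchor of the lymphotoxin heterotrimer, TNFRSF1B, the second TNF receptor, TNFRSF21, death receptor 6, and TNFSF15, a ligand of endothelial origin that stimulates T cells, were lower. These are 8.82% of members called higher, against 10.6% of all genes, and 11.8% called lower, against 7.27%. The median difference over the 34 members was 0.01, against −0.0019 over all genes, and 20 of the 34 differences were positive. Among the 16 members that were not dim, 3 were called higher and 3 lower, where 17.0% and 6.23% of the 8765 genes of that level were. Their median difference was 0.58, against 0.18 for those genes. Of the 18 dim members 0 were called higher and 1 lower, where 1.59% and 8.71% of 6350 dim genes were, and their median was −0.01, against −0.03. The 2 members past the study's thresholds (adjusted p under 0.001 and a fold over 1.7), LTB and TNFRSF1B, stand against 0.801% of all genes. The measure is not the study's own, since the study set its limit on q-values from a different test. Its list of down-regulated receptors holds both TNFRSF1B and TNFRSF21. With the adjusted p used here, TNFRSF21 did not pass (limma, adjusted p = 0.00420).

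**Figure D1:**
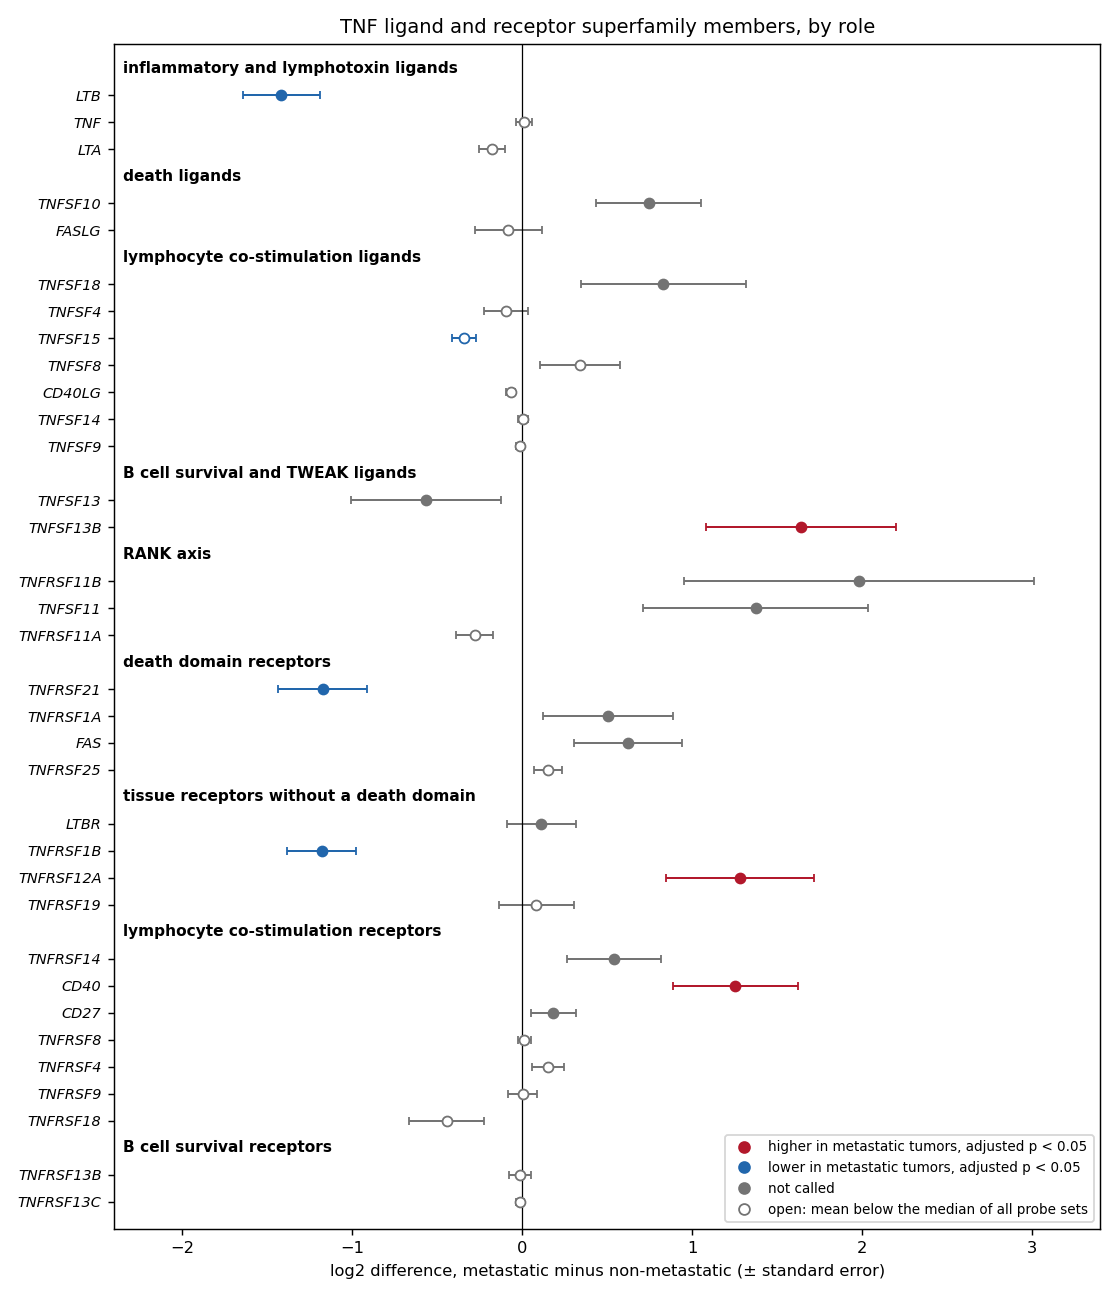
Log2 difference of each of the 34 members, metastatic minus non-metastatic (n = 13 and 14 tumors), with its standard error, grouped by role; red points were called higher, blue points lower and grey points not called, and open points are dim. The 3 members called higher lie between 1.25 and 1.64, and those called lower between −1.42 and −0.34.

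CD40 ranged from 4.82 to 9.21 (median 5.82) in metastatic and from 3.76 to 5.95 (median 4.59) in non-metastatic tumors. All 13 metastatic tumors lay above the non-metastatic median, and 5 of them above every non-metastatic tumor, the highest being that of dog 7 (9.21), followed by a tumor at 7.72. The difference was 1.25 (SE 0.37, limma, adjusted p = 0.0207), a 2.38-fold higher level. Its ligand CD40LG, made by activated T cells, had levels of 2.61 to 2.81 in metastatic and 2.73 to 3.01 in non-metastatic tumors, with a difference of −0.07 (SE 0.03, adjusted p = 0.0726), which was called lower when the variances were not moderated, as in the test of the methods (adjusted p = 0.0484).

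TNFRSF12A, which is induced by growth factors and wounding and binds TWEAK, had levels of 5.60 to 9.45 (median 8.18) in metastatic and 5.57 to 8.18 (median 6.11) in non-metastatic tumors. The metastatic tumors were spread widely, with 6 above every non-metastatic tumor and 3 below the non-metastatic median. The difference was 1.28 (SE 0.43, limma, adjusted p = 0.0420). Without any 1 of dogs 1, 4, 5, 8, 9, 10, 11, 16, 17, 18, 19, 20, 22, 24, 25, 26 or 27 the call was lost, with a difference of 1.13 to 1.45 over all 27 omissions and an adjusted p of up to 0.0737.

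TNFSF13B is released by myeloid and stromal cells and keeps B cells alive. Its levels were 3.05 to 8.83 (median 5.61) in metastatic and 2.61 to 5.81 (median 4.64) in non-metastatic tumors, and 6 metastatic tumors exceeded every non-metastatic one, while 3 lay below the non-metastatic median. The difference was 1.64 (SE 0.56, limma, adjusted p = 0.0435), the largest among the called members. The call was lost without any 1 of dogs 2, 3, 5, 6, 7, 10, 17, 18, 19, 20, 23, 25 or 26, with a difference of 1.40 to 1.88 over all omissions and an adjusted p of up to 0.0719. The B cell receptors that bind it were dim. TNFRSF13B (TACI) differed by −0.01 (SE 0.06, adjusted p = 0.896) and TNFRSF13C (the BAFF receptor) by −0.01 (SE 0.02, adjusted p = 0.731), and the groups overlapped for both. The related ligand TNFSF13 (APRIL) had levels of 6.68 to 8.08 (median 7.14) in metastatic and 5.19 to 9.87 (median 8.21) in non-metastatic tumors. All 13 metastatic tumors lay below the non-metastatic median, but 4 non-metastatic tumors lay lower still, and the difference of −0.57 (SE 0.44, adjusted p = 0.367) was not called.

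**Figure D2:**
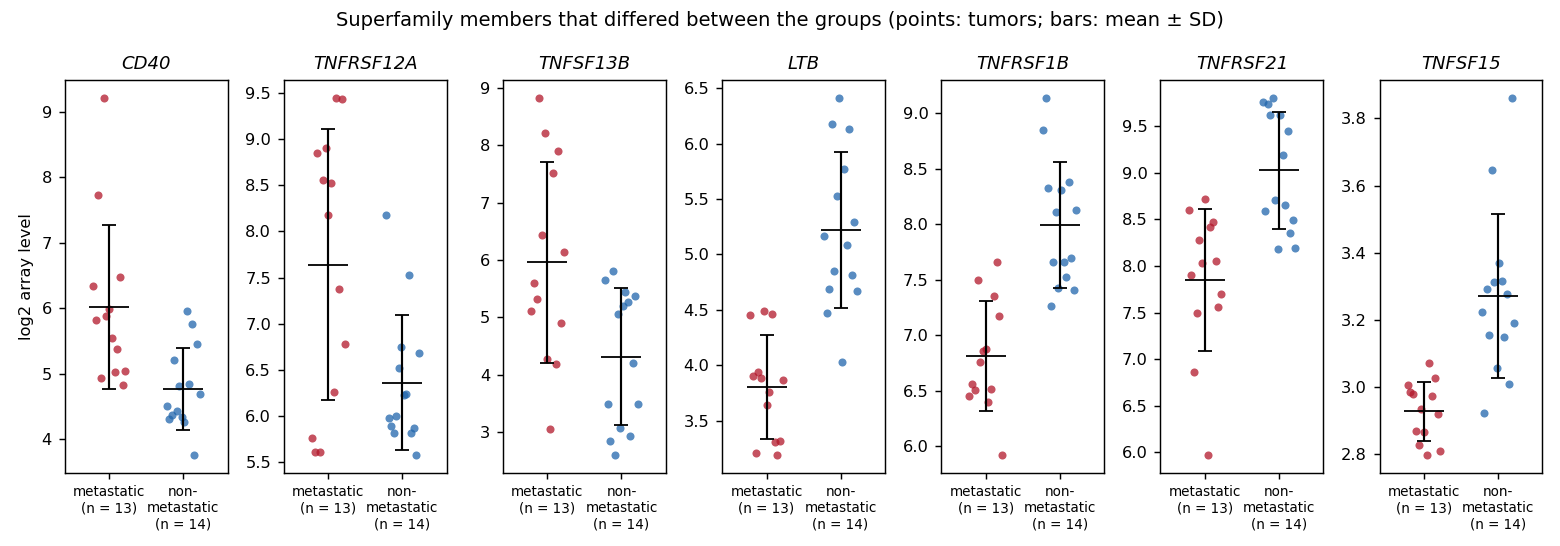
Log2 array level of the 7 called members in each tumor (points), metastatic (n = 13) beside non-metastatic (n = 14), with the mean ± SD as bars; each panel has its own axis, which does not start at 0. For LTB, 12 of the 14 non-metastatic tumors lie above every metastatic tumor, whereas for TNFRSF12A and TNFSF13B 3 of the 13 metastatic tumors lie below the non-metastatic median.

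LTB had levels of 3.20 to 4.49 (median 3.87) in metastatic and 4.03 to 6.41 (median 5.13) in non-metastatic tumors. Of the non-metastatic tumors 12 lay above every metastatic tumor, and of the metastatic tumors 10 lay below every non-metastatic one, so that the overlap involved 2 non-metastatic tumors, that of dog 14 (4.03) and another at 4.47. The difference was −1.42 (SE 0.23, limma, adjusted p = 0.000390). Its receptor LTBR, found on stromal, epithelial and myeloid cells, ranged from 8.36 to 10.1 (median 9.11) in metastatic and from 8.25 to 10.1 (median 9.14) in non-metastatic tumors, with a difference of 0.11 (SE 0.20, adjusted p = 0.715) for its brightest probe set. LTA, the soluble partner of LTB, was dim at 2.11 to 2.41 in metastatic and 2.32 to 3.35 in non-metastatic tumors, and its difference was −0.18 (SE 0.08, adjusted p = 0.0981). Without the non-metastatic tumor of dog 23, which held the highest LTA level, that difference was called (adjusted p = 0.0304).

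TNFRSF1B, which answers mainly to membrane-bound TNF and lacks a death domain, had levels of 5.92 to 7.66 (median 6.76) in metastatic and 7.27 to 9.14 (median 7.90) in non-metastatic tumors. Here 10 metastatic tumors lay below every non-metastatic tumor. The difference was −1.18 (SE 0.20, limma, adjusted p = 0.000642). TNFRSF1A, the death domain receptor for soluble TNF, ranged from 6.95 to 9.46 in metastatic and from 4.65 to 8.81 in non-metastatic tumors and differed by 0.50 (SE 0.38, adjusted p = 0.357), and TNF differed by 0.01 (SE 0.05, adjusted p = 0.875). Whether the 2 TNF receptors differed in their response was not tested.

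TNFRSF21 had levels of 5.98 to 8.72 (median 8.03) in metastatic and 8.18 to 9.81 (median 8.95) in non-metastatic tumors, with 8 metastatic tumors below every non-metastatic one. The difference was −1.17 (SE 0.26, limma, adjusted p = 0.00420). The other death domain receptors were not called. Among them FAS differed by 0.62 (SE 0.32, adjusted p = 0.164), and 12 of the 13 metastatic tumors exceeded the non-metastatic median. TNFSF15 was called from dim levels, 2.80 to 3.07 (median 2.94) in metastatic and 2.92 to 3.86 (median 3.25) in non-metastatic tumors. The difference was −0.34 (SE 0.07, limma, adjusted p = 0.00256), and 11 non-metastatic tumors lay above every metastatic tumor. Its receptor TNFRSF25 (DR3) had 2.41 to 3.46 in metastatic and 2.38 to 2.67 in non-metastatic tumors and a difference of 0.15 (SE 0.08, adjusted p = 0.182).

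Several of these calls depend on the probe set that stands for the gene. The 34 members had 59 probe sets, and 15 members had more than 1. The other LTB probe set was dim and moved the opposite way, with levels of 2.39 to 5.75 in metastatic and 2.18 to 4.03 in non-metastatic tumors (difference 0.92, SE 0.35, limma, adjusted p = 0.0579 over all probe sets). Pearson's r between both LTB probe sets was −0.46 over the 27 tumors. The other probe set of TNFRSF1B differed by −0.62 (SE 0.34, adjusted p = 0.174) and that of TNFRSF21 by −0.96 (SE 0.57, adjusted p = 0.211), the same direction with a wider spread. The 3 other probe sets of TNFSF15 differed by 0.01 to 0.43, with none called. For TNFSF13B, both further probe sets were dim and differed by 0.24 and −0.03. CD40 and TNFRSF12A had 1 probe set each. Conversely TNFRSF14, not called by its brightest probe set (difference 0.54, SE 0.28, adjusted p = 0.166), had another with a difference of 1.38 (SE 0.44, adjusted p = 0.0306 over all probe sets). LTBR, too, had 1 dim probe set of its 5 that was called, and in the other direction from its brightest (−0.15, SE 0.04, adjusted p = 0.0120).

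**Figure D3:**
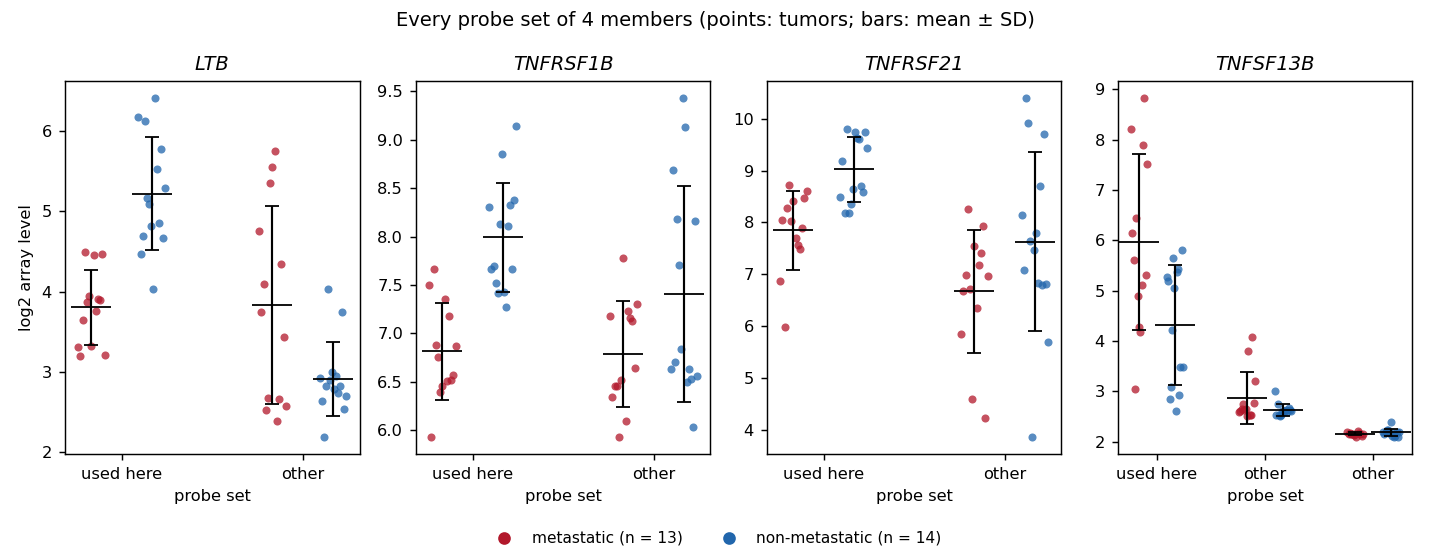
Log2 array level of every probe set of LTB, TNFRSF1B, TNFRSF21 and TNFSF13B in each tumor (points), metastatic in red beside non-metastatic in blue, with the mean ± SD as bars; the probe set used for the gene stands first, and the axes do not start at 0. The 2 probe sets of LTB differ by −1.42 and 0.92 between the groups.

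The remaining 27 members were not called. TNFSF10 (TRAIL), which triggers apoptosis through death receptors, had levels of 12.3 to 13.5 (median 12.8) in metastatic and 9.97 to 13.7 (median 12.3) in non-metastatic tumors, and 6 non-metastatic tumors lay below every metastatic one. Its difference was 0.74 (SE 0.31, limma, adjusted p = 0.0920), and without dog 17 it was called (adjusted p = 0.0430). TNFRSF14 (HVEM), a receptor of LIGHT and BTLA, ranged from 8.87 to 10.7 in metastatic and from 6.59 to 10.4 in non-metastatic tumors. TNFSF18 (GITR ligand) differed by 0.83 (SE 0.49, adjusted p = 0.228), averaging 4.26 among metastatic and 3.43 among non-metastatic tumors, so that it counts as not dim through the metastatic tumors alone, and CD27, a receptor of T and memory B cells, by 0.18 (SE 0.13, adjusted p = 0.333).

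The decoy and the ligand of the RANK axis had the largest SDs of the 34 members. TNFRSF11B (osteoprotegerin), the decoy for RANK ligand, spanned 2.57 to 12.3 (median 5.88) in metastatic and 2.72 to 9.71 (median 4.05) in non-metastatic tumors, and its difference of 1.98 (SE 1.03, limma, adjusted p = 0.173) was not called. TNFSF11, RANK ligand itself, had levels of 3.12 to 8.99 (median 4.79) in metastatic and 2.66 to 8.78 (median 3.30) in non-metastatic tumors and differed by 1.37 (SE 0.66, adjusted p = 0.143). Of the non-metastatic tumors 6 lay below every metastatic one, yet that of dog 24 had 8.78, and without it TNFSF11 was called (adjusted p = 0.0331). Its receptor TNFRSF11A (RANK) was dim, differed by −0.28 (SE 0.11, adjusted p = 0.0743) and was called lower without dog 18 (adjusted p = 0.0428).

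Of the dim members not yet described, differences lay between −0.44 for TNFRSF18 (GITR, SE 0.22, limma, adjusted p = 0.156) and 0.34 for TNFSF8 (CD30 ligand, SE 0.24, adjusted p = 0.310). TNFRSF18 lay between 1.85 and 2.13 in metastatic and between 1.96 and 4.52 in non-metastatic tumors, and TNFSF8 between 2.44 and 5.45 in metastatic and between 2.81 and 3.10 in non-metastatic tumors. The widest values came from few tumors, as dogs 15, 19 and 21 had 3.57, 3.64 and 4.52 for TNFRSF18 and dogs 3, 7 and 10 had 5.45, 4.12 and 4.56 for TNFSF8. TNFRSF19 (TROY) likewise reached 5.17 in a metastatic tumor, while 12 of 13 metastatic tumors lay below the non-metastatic median. FASLG, TNFSF4 (OX40 ligand), TNFSF9 (4-1BB ligand), TNFSF14 (LIGHT), TNFRSF4, TNFRSF8 (CD30) and TNFRSF9 (4-1BB) differed by −0.09 to 0.15.

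By grade, TNFSF11 differed by 3.00 (SE 0.99) in grade II and 0.20 (SE 0.82) in grade III tumors, and TNFSF13B by 0.23 (SE 0.81) in grade II and 2.72 (SE 0.68) in grade III tumors. In grade II the metastatic tumors had TNFSF11 levels of 3.60 to 8.99 (n = 6) and the non-metastatic tumors 2.76 to 3.47 (n = 5). These ranges did not overlap, but how many of all genes do the same between so few tumors was not counted. The fit in grade II alone called 0 members, where 1.16% of all genes were called higher and 0.529% lower. For 1 of these 5 non-metastatic tumors the study's table gives grade III. In grade III the metastatic tumors had TNFSF13B levels of 5.11 to 8.83 (n = 7) and the non-metastatic tumors 2.61 to 5.81 (n = 9). The interactions of status with grade had an unadjusted p of 0.0402 for TNFSF11 and 0.0270 for TNFSF13B in limma, but 0 members and 0 genes passed an adjusted p of 0.05, and the smallest adjusted p of a member was 1.00.

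**Figure D4:**
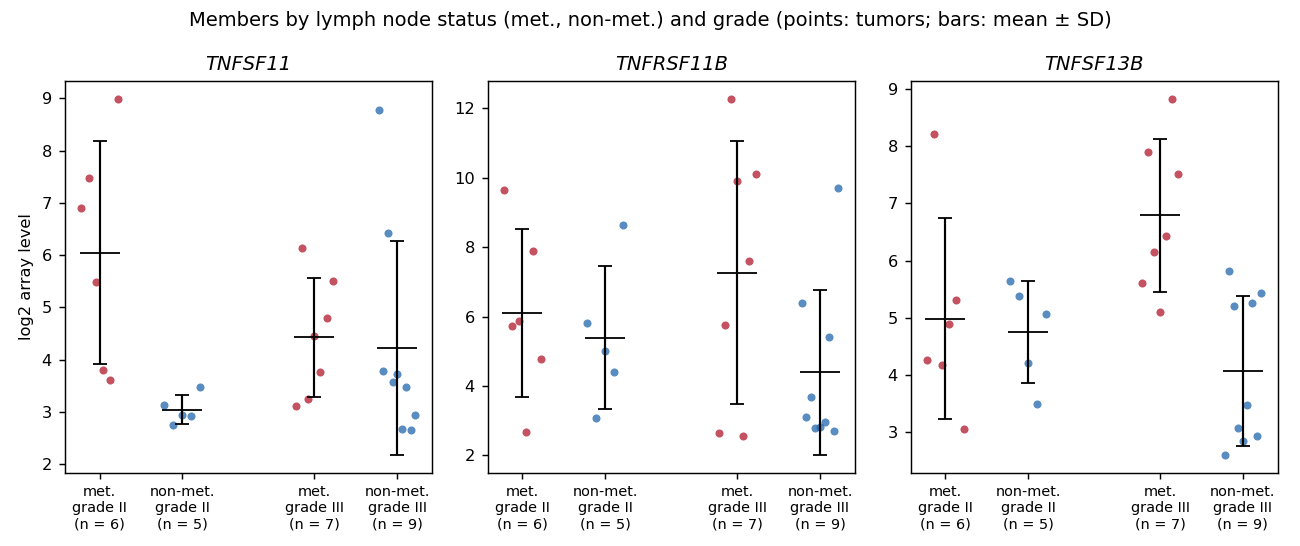
Log2 array level of TNFSF11, TNFRSF11B and TNFSF13B in each tumor (points) by lymph node status and grade, with the mean ± SD as bars and axes that do not start at 0. Grade II non-metastatic tumors hold TNFSF11 levels of 2.76 to 3.47, and TNFSF13B separates the groups in grade III more than in grade II, an interaction that did not pass adjustment.

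To describe with which cells the members moved, each was set against the mean centred level of 11 marker lists, 10 of cell types and 1 of mitosis, over the 27 tumors. Of 374 relations 39 had an adjusted p under 0.05 (two-sided permutation test, 100000 permutations, Benjamini-Hochberg over the 374). T and NK cell markers took the most, with 9 members and all in the positive direction. Smooth muscle and myoepithelium markers followed with 8. Of the 16 members that were not dim, 5 and 7 had these relations. The share of all genes related to each score was not computed, so these counts are not a result about the family. CD27 followed T and NK cells with r = 0.77 (rho 0.66, adjusted p = 0.0028, r = 0.72 without the 2 tumors farthest from the median score). FASLG, the death ligand of cytotoxic cells, had r = 0.76 (rho 0.52, adjusted p = 0.00187), which was 0.45 without those 2 tumors, and TNFRSF25 had r = 0.72 (rho 0.71, adjusted p = 0.0138). TNFRSF4 (OX40) had r = 0.83 with B cell markers (rho 0.62, adjusted p = 0.00499, 0.77 without the 2 farthest tumors), itself a dim list. TNFRSF14 followed T and NK cells with r = 0.69 (rho 0.53) and macrophages with r = 0.69 (rho 0.44), adjusted p = 0.00514 both, although neither rho passed adjustment.

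Of the called members, TNFSF13B ran with macrophage markers, with r = 0.74 (rho 0.71, permutation test, adjusted p = 0.0028, 0.77 without the 2 farthest tumors), 0.72 within metastatic and 0.77 within non-metastatic tumors. TNFSF13B also ran with T and NK cells (r = 0.58, rho 0.58, adjusted p = 0.0227). Against smooth muscle and myoepithelium markers it had r = −0.57 (rho −0.53), which was −0.31 within metastatic and −0.41 within non-metastatic tumors. CD40 ran with T and NK cells (r = 0.68, rho 0.59, adjusted p = 0.0138) and against smooth muscle and myoepithelium markers (r = −0.74, rho −0.72, adjusted p = 0.00187, −0.71 without the 2 farthest tumors), the second relation being −0.62 within metastatic and −0.65 within non-metastatic tumors. LTB, TNFRSF1B and TNFRSF21 ran with smooth muscle and myoepithelium markers, with r = 0.65 (rho 0.72), 0.61 (rho 0.71) and 0.68 (rho 0.61) and adjusted p of 0.00816, 0.0169 and 0.00449, and with r = 0.72, 0.58 and 0.53 without the 2 farthest tumors. Within the groups these were 0.15, 0.14 and 0.59 in metastatic and 0.28, 0.20 and 0.22 in non-metastatic tumors, so that most of the pooled relation of LTB and TNFRSF1B lay between the groups. TNFRSF21 also ran against mitosis markers (r = −0.67, rho −0.59, adjusted p = 0.00623, −0.52 within metastatic and −0.12 within non-metastatic tumors), as did LTB (r = −0.60, rho −0.64, adjusted p = 0.0198, 0.01 within metastatic and −0.10 within non-metastatic tumors), while CD40 ran with them (r = 0.57, rho 0.59, adjusted p = 0.0212, 0.24 within metastatic and 0.38 within non-metastatic tumors). With plasma cell markers CD40 had r = 0.60 (rho 0.69, adjusted p = 0.0232), TNFSF13B r = 0.55 (rho 0.40, adjusted p = 0.0341) and LTB r = −0.59 (rho −0.61, adjusted p = 0.0195). Within metastatic tumors these were 0.39, 0.43 and −0.35, and within non-metastatic tumors 0.66, 0.35 and −0.54. TNFRSF12A and TNFSF15 had no relation with an adjusted p under 0.05.

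**Figure D5:**
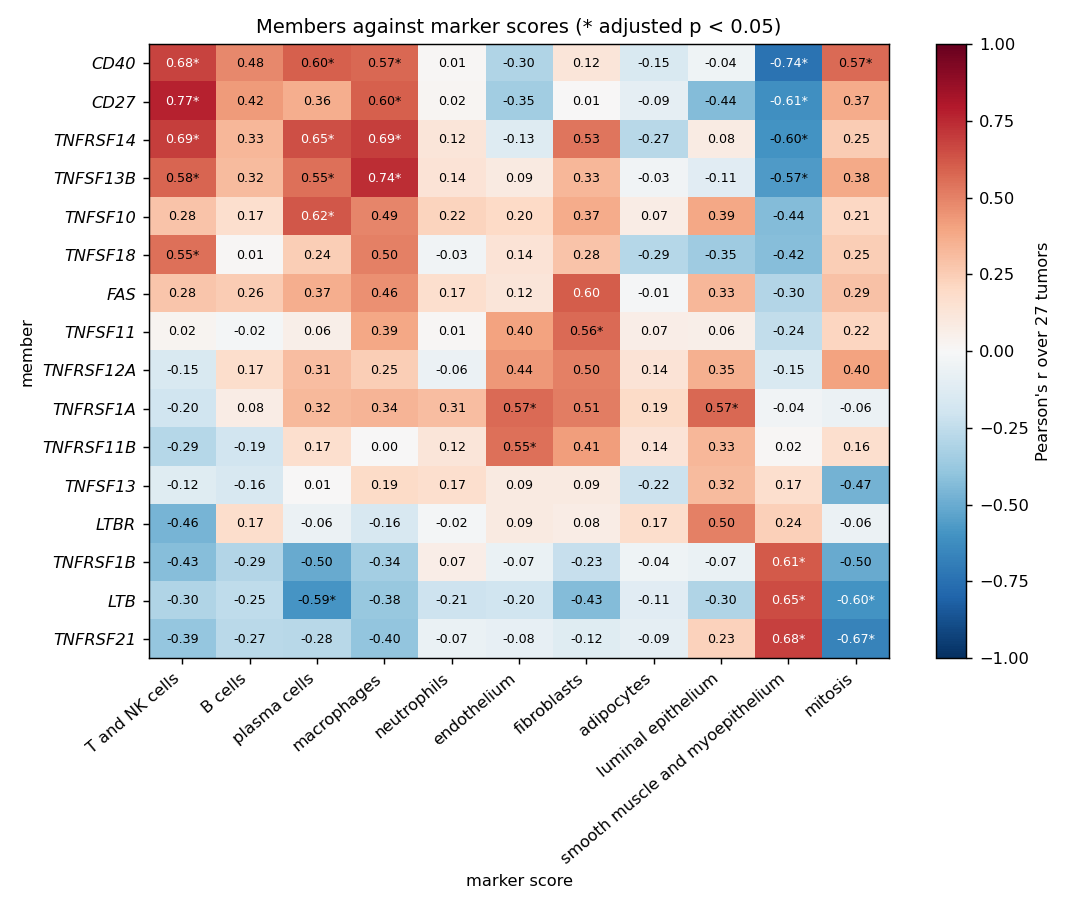
Pearson's r over 27 tumors between the log2 level of the 16 members that were not dim (rows) and 11 marker scores (columns), with asterisks for an adjusted p under 0.05. CD40, CD27, TNFRSF14 and TNFSF13B share positive values for T and NK cells and macrophages, and TNFRSF1B, LTB and TNFRSF21 share positive values for smooth muscle and myoepithelium.

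These marker lists differed between the groups to different degrees. The smooth muscle and myoepithelium score was −0.94 ± 0.93 on average in metastatic and 0.87 ± 0.95 on average in non-metastatic tumors (SD, n = 13 and 14, permutation test, p = 7e-05), with 4 of 7 genes called lower, and the mitosis score 1.24 ± 1.21 in metastatic and −1.15 ± 0.99 in non-metastatic tumors (p = 4e-05), with 10 of 11 genes called higher. The macrophage score was 0.27 ± 0.67 in metastatic and −0.25 ± 0.90 in non-metastatic tumors (p = 0.106) and the T and NK cell score 0.32 ± 1.06 in metastatic and −0.30 ± 1.08 in non-metastatic tumors (p = 0.151), and 0 of 9 and 0 of 11 of their genes were called. The plasma cell score was 0.50 ± 1.12 in metastatic and −0.46 ± 0.64 in non-metastatic tumors (p = 0.0104), with 0 of 4 genes called. These p-values are not adjusted. The summed level of the smooth muscle list, as a mean per gene, spanned 7.72 to 10.4 in metastatic and 8.52 to 12.3 in non-metastatic tumors. When the smooth muscle score entered the fit, the differences of CD40 and TNFSF13B were 0.14 (limma, adjusted p = 0.854) and 0.64 (0.604), those of LTB and TNFRSF21 −1.15 (0.0511) and −0.62 (0.252), and that of TNFRSF12A 2.01 (0.0572), the adjusted p standing in brackets. TNFRSF1B differed by −1.00 (0.0545) there, and over all 15115 genes 123 were called higher and 244 lower in that fit. Of the called members, only TNFSF15 was still called with this score, as lower. With the macrophage score CD40 differed by 0.94 (0.0699) and TNFSF13B by 0.96 (0.128). LTB, TNFRSF1B, TNFRSF21 and TNFSF15 were still called lower with it, and 1254 of all genes were called higher and 723 lower. With the mitosis score, TNFRSF1B had −1.35 (0.0912), TNFRSF21 had −0.64 (0.419) and CD40 0.66 (0.558), while 1 gene of all 15115 was called higher and 1 lower with that score.

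The probe sets of LTB parted by cell type as well. The probe set used for the gene had r = −0.25 with B cell and −0.30 with T and NK cell markers. The other had 0.68 (rho 0.61, permutation test, adjusted p = 0.0130 over 143 relations of 13 probe sets) and 0.66 (rho 0.74, adjusted p = 0.0130), the T and NK cell relation being 0.81 within metastatic and 0.39 within non-metastatic tumors. These relations were chosen after the values had been seen. As lymphotoxin beta is made mainly by lymphocytes, which of the 2 probe sets measures the gene was not tested, and the lower LTB level in metastatic tumors holds for 1 of them only.

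In most ligand and receptor pairs at least 1 partner was dim, so that the lack of a relation says little. Of 24 known pairs 18 had both partners measured, and 1 had an adjusted p under 0.05, LTA with TNFRSF1B (r = 0.58, rho 0.57, permutation test, adjusted p = 0.0045). That relation was −0.19 within metastatic and 0.64 within non-metastatic tumors, and LTA was dim. The pairs in which neither partner was dim, LTB with LTBR (r = −0.06, rho −0.03) and TNFSF11 with TNFRSF11B (r = 0.19, rho 0.19), had adjusted p of 0.919 both. CD40 with CD40LG had r = −0.09 (rho −0.40, adjusted p = 0.919). Some members without such a bond moved together. Among 120 pairs of members that were not dim, looked at after the values had been seen, 34 had an adjusted p under 0.05, of which 15 were negative. This count leaves out dim members and so cannot be set against that of the ligand and receptor pairs. The share among pairs of other genes was not computed. LTB and TNFRSF1B had the highest r, 0.75 (rho 0.80, adjusted p = 0.0024, 0.41 within metastatic and 0.39 within non-metastatic tumors). Both genes were called between the groups, and the 2 within-group values had an unadjusted permutation p of 0.163 and 0.171. CD40 went with TNFSF13B (r = 0.70, rho 0.64, adjusted p = 0.0030, 0.63 within metastatic and 0.48 within non-metastatic tumors) and with TNFRSF14 (r = 0.68, rho 0.66, adjusted p = 0.00732, 0.72 within either group). TNFRSF11B went with TNFRSF12A (r = 0.67, rho 0.66, adjusted p = 0.0066, 0.51 within metastatic and 0.89 within non-metastatic tumors).

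Downstream of the receptors, 5 lists were counted, and 0 of their genes were called lower. Beside the counts stand the shares called higher of all genes, 10.6%, and of genes that are not dim, 17.0%, and their median differences, −0.0019 and 0.18. The shares called lower were 7.27% and 6.23%. No list was tested against other genes. Of 4 measured TRAF adaptors 0 were called, and TRAF5, with a difference of −0.57 (SE 0.20, limma), missed the threshold narrowly. Of 12 death signalling genes 2 were higher, SIVA1, which binds the tail of CD27 (1.49, SE 0.31, adjusted p = 0.00271), and BID, which links caspase-8 to mitochondria (0.85, SE 0.20, adjusted p = 0.00601). CASP8 differed by 1.38 (SE 0.56, adjusted p = 0.0872). Among 17 genes of NF-kB signalling NFKBIB alone was called (0.63, SE 0.17, adjusted p = 0.0158).

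Of 14 ubiquitin regulators of TNF signalling, 13 of them not dim, 5 were higher, and the median difference was 0.21. They included BIRC3 (cIAP2), a ubiquitin ligase recruited with TRAF2, with a difference of 1.63 (SE 0.43, limma, adjusted p = 0.0110), and OTULIN, which removes linear ubiquitin chains, with 0.48 (SE 0.15, adjusted p = 0.0273). UBE2D3 and TNIP1 were the others of smallest adjusted p, with 0.33 and 0.59. Of 15 genes that TNF induces 2 were higher, GADD45B (1.47, SE 0.33, adjusted p = 0.00381) and the chemokine gene CCL2 (1.08, SE 0.31, adjusted p = 0.0185), a share near that of all genes, and their list had a median difference of 0.83. The 5 measured superfamily genes with other names, CD70, EDA, EDAR, NGFR and RELT, were all dim and 0 were called.

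Several members lie next to each other in the dog genome. LTA, TNF and LTB are neighbours in that order, and only LTB was called. TNFSF15 and TNFSF8 are neighbours, with differences of −0.34 and 0.34 (SE 0.07 and 0.24). LTBR and CD27 adjoin each other and differed by 0.11 and 0.18, and 1 gene lies between TNFRSF1B, which was called lower, and TNFRSF8, which was dim and differed by 0.01.

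Of the 7 calls, 5 were made in each of 27 fits that left out 1 tumor, those of CD40, LTB, TNFRSF1B, TNFRSF21 and TNFSF15. Without dogs 14 and 22, which stood out in the study's clustering of these same data, the counts were again 3 higher and 4 lower. Over all genes 1858 were then called higher and 1288 lower. As the data themselves singled out these 2 tumors, this fit is no independent check. With tumor size as a covariate 0 members were higher and the same 4 were lower, with LTB at −1.24 (limma, adjusted p = 0.00699) and CD40 at 1.08 (adjusted p = 0.123). Of all genes, 655 (4.33%) were called higher and 298 (1.97%) lower in that fit. When a term for whether a name ends in T was added, so that dogs 1 and 8 alone stood for metastatic tumors without it, 0 members were called in either direction, and 10 genes were higher and 0 lower. The part of size, of the name ending and of RNA quality in these differences cannot be told apart from that of lymph node status, since each moves with it.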

How the data were processed

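RNA of 27 tumors, 13 metastatic and 14 non-metastatic, was measured on Affymetrix canine arrays. The deposited log2 values are those of the authors, who ran the gcRMA workflow of Partek Genomics Suite (background correction, quantile normalization, median polish); the submitters' processing notes name Partek, GCRMA and RMA. Quantile normalization is meant to make array distributions alike, yet the upper quartiles of the deposited values differed between the groups. Low values hold little but background. No depth applies to arrays, whose number limits the precision.

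Without the 175 control probe sets of 43035, 42860 were fitted with limma 3.58.1 in R 4.3.3 (lmFit, eBayes, no covariate, groups from the lymph node label). Of these, 29254 carry 1 gene symbol in the platform annotation, 439 several and 13167 none. The probe set of highest mean stood for each of 15115 genes, and adjusted p are Benjamini-Hochberg values over genes. All 34 members matched a current dog gene by symbol. The methods' ANOVA was an alternative. Each array is the tumor of 1 dog.

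Full statistics are given for called members, their partners, and the 3 members of largest SD and of highest mean. Marker scores are means of gene-centred log2 values. Relations were tested in Python 3.11.15 with 100000 permutations. The limma fit and the permutation test were tested on simulated data. The members and gene lists were chosen with earlier results of these data known. The grade of 1 non-metastatic tumor differs between the labels (II) and the study's table (III); the labels were used. Alternatives covered the test, weights, scaling, dim probe sets, the choice of probe set, single tumors, grade, age, size, name ending, cell type scores and, added after the data had been seen, the GAPDH difference.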

Additional observations from a re-analysis of the deposited data

How the results depend on the processing

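The counts of members higher, lower and past the study's thresholds were 3, 4 and 2. The higher count was 0 with the upper quartile of the array, tumor size, age with size, or the B cell, macrophage, smooth muscle or mitosis score as a covariate, with the name ending as a block, and in grade II or grade III alone, and 1 with the endothelium score or the GAPDH difference as a covariate. The lower count was 0 with the probe set of largest variance per gene, the name ending, the mitosis score or grade II alone, 1 with the mean of a gene's probe sets or the smooth muscle score, and 2 with the upper quartile, age with size, the GAPDH difference or grade III alone. The count past the study's thresholds was 0 with either other choice of probe set, the upper quartile, size, age with size, the name ending, either grade alone, the T and NK cell, B cell, macrophage, smooth muscle or mitosis score, or the GAPDH difference.

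Leaving out 1 tumor gave 1 to 3 higher, 4 to 5 lower and 1 to 2 past the study's thresholds. The higher count was 1 without dogs 5, 10, 18, 19, 20, 25 or 26. The third count was 1 without dogs 2, 6, 7, 9, 10, 11, 12, 13, 17, 20, 24, 25 or 26, where LTB still passed. LTB (0.92) and TNFSF15 (0.43) had the opposite sign with the probe set of largest variance, and TNFSF15 (0.13) with the mean of its probe sets. TNFSF13, not called, was lower with array weights (−1.36, limma, adjusted p = 0.0120) and with the upper quartile as a covariate (−1.73, adjusted p = 0.0284). CD40LG was called lower by an ordinary ANOVA (−0.07, adjusted p = 0.0484), and TNFRSF8 higher after the second quantile normalization (0.11, adjusted p = 0.0110), where TNFRSF12A and TNFSF13B were not. The cause of these changes was not tested. Over all genes, 403 were called higher and 395 lower with the upper quartile, 980 and 960 after quantile normalization was repeated. Age with size gave 465 and 173, grade II alone 175 and 80, and grade III alone 122 and 93. The B cell score gave 1242 and 749, the macrophage score 1254 and 723, and the endothelium score 1673 and 1051. The GAPDH difference gave 526 and 309, the probe set of largest variance 2183 and 1204, and the mean of probe sets 1763 and 1010. Several fits thus called fewer genes throughout, and the member counts alone are no result about the family. No paired analysis was possible because replicate numbers only name the tumors.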
